A study of Drosophila melanogaster with 4 samples.

Results

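Isolated narrow Cmi peaks are called binding sites of the chromatin protein Cmi that are short and stand alone. A peak was taken as isolated when no other peak midpoint of the same chromosome arm lay within 5000 bp, and as narrow when it was below 500 bp wide. On the 6 major arms (X, 2L, 2R, 3L, 3R and 4) 590 of 2679 peaks met both limits, or 22.0% (95% Wilson interval 20.5 to 23.6), out of 3110 peaks deposited in all. They were set beside 912 grouped narrow peaks, which are as short but have another peak within 5 kb.

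Cmi, encoded by CG5591 and listed as Lpt in the gene table used here, belongs to the Trithorax-related complex of Drosophila. This complex places methyl groups on lysine 4 of histone H3, a mark of enhancers and other active regulatory DNA. Cmi corresponds to the amino-terminal part of the mammalian MLL3 and MLL4 proteins and carries PHD fingers, which bind histone tails. Enhancers can lie in clusters around developmental genes or far from other regulatory DNA, so the spacing of peaks describes a site's surroundings.

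The data came from 2 libraries immunoprecipitated with a rabbit polyclonal antibody raised against full-length Cmi and 2 libraries of input DNA. All 4 libraries were labelled as embryos of 0 to 8 h of the strain Exd-GFP-13T, genotype w; PBac{y[+]-attP-3B}VK00033, of unknown sex, and all carried a transgene of exd whose stop codon gave way to GFP. The extraction protocol describes another stock and an older collection, and the stage and strain fields were followed here. The transgene is therefore known only from these fields, by which the 2 antibody libraries share it with their input. The embryos hold many cell types, so a weak site in every cell and a strong site in few cells cannot be told apart. A single peak list with 1 score per peak represents the experiment. It gives no value per library, so the depth is unknown, the spread between replicates was not analysed, and peaks are not replicates. Position, width and score come from the same peak calls that chose the members. All values are therefore descriptions of this list, with no test, and intervals cover the counting of peaks only. Peaks are named by position on FlyBase release 5, 1-based, and genes and base sequences were not assigned to them here.

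Most isolated narrow peaks had low scores, and a small number were among the highest-scoring peaks of the major arms. For peaks, weak and strong refer here to the score only. The score has no scale in the file, and from its values it was read as the negative log10 of a Poisson p-value against the background, not adjusted. The scores of the isolated narrow peaks ran from 6.09 to 109.74, with a median of 11.3 (95% order-statistic interval 11.1 to 11.9) and quartiles of 9.55 and 14.4. Grouped narrow peaks ran from 6.46 to 42.9, with a median of 10.7 (10.3 to 11.1) and quartiles of 9.19 and 13.6. The medians of both groups thus lay 0.605 apart, which is small beside the spread within either group. Taking opposite ends of both intervals gives a span from -0.01 to 1.53. This span is wider than a 95% interval of the difference, which was not computed. Isolated wide peaks had a median of 22.0 (20.6 to 23.6). Scores below 10 were held by 34.9% of the isolated narrow peaks and 41.9% of the grouped narrow peaks.

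The upper end of the scores separated the groups more than the middle. The 90th percentile was 20.0 in isolated and 17.1 in grouped narrow peaks, and the 95th was 23.6 and 19.9. Of the isolated narrow peaks 37 of 590 (6.27%, Wilson interval 4.58 to 8.52) scored above 22.5, the upper quartile of the major arms, compared with 25 of 912 grouped narrow peaks (2.74%, 1.86 to 4.02). The share over all peaks of the major arms was 25.0%, so both kinds of narrow peak lay far below it. Above a score of 30 there were 17 isolated narrow peaks (2.88%, 1.81 to 4.57) and 6 grouped narrow peaks (0.658%, 0.302 to 1.43), against 15.0% of all peaks of the major arms.

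**Figure D1:**
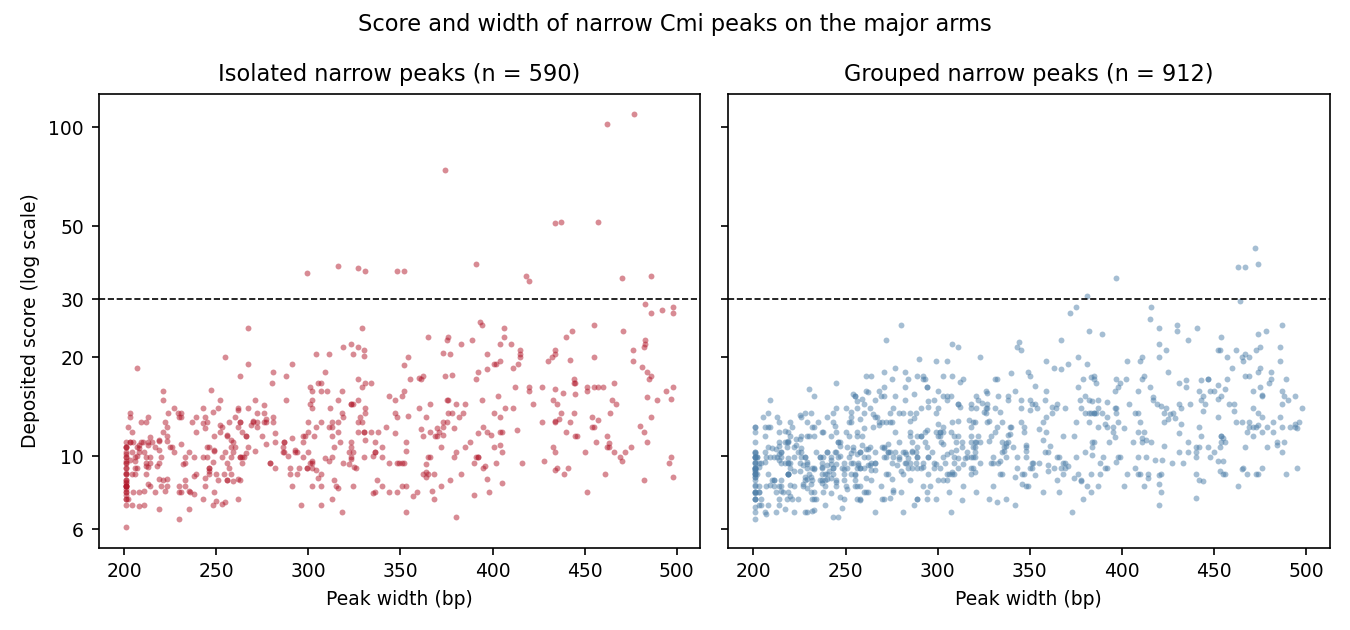
Deposited score (log scale) against peak width (bp) for the 590 isolated narrow peaks (left) and the 912 grouped narrow peaks (right), 1 point per peak, with a dashed line at a score of 30. Both clouds rise with width, and 17 isolated but 6 grouped points lie above the line, the highest at 109.74 and 42.9.

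On the major arms, peaks this strong were usually wide. Outside them, 164 isolated and 131 grouped narrow peaks also scored above 30, and they are described further below. The 401 peaks of the major arms above 30 were 1119 bp wide at the median (810 and 1628 bp at the quartiles), and 23 of them, or 5.74%, were narrow. Among the 125 isolated peaks above 30, 17 were narrow (13.6%), while among the 276 grouped peaks above 30, 6 were narrow (2.17%). Isolated wide peaks above 30 had a median width of 1022.5 bp (n = 108), and the 17 isolated narrow peaks had 418 bp, with a range of 299 to 486 bp.

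A group of 6 isolated narrow peaks stood clear of the rest, all with scores above 50. The highest, 109.74, belonged to a peak of 477 bp at 3R:12624388-12624864, which ranked 10th among all 2679 peaks of the major arms. Its nearest neighbours lay 26.9 kb to the left and 13.1 kb to the right, and the nearer one, of 217 bp, scored 7.78. The second, 102.09, was a peak of 462 bp on the small chromosome 4 at 4:445189-445650, which ranked 13th. It had a neighbour of 1044 bp with a score of 57.07 at a distance of 20.0 kb. The third, 73.98, was a peak of 374 bp at 2R:11226991-11227364, which ranked 46th and lay 10.7 kb from a neighbour of 2058 bp that scored 20.01. These 3 peaks therefore outscored every peak within 50 kb of them, of which the best reached 42.9, 57.07 and 27.05.

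The next 3 peaks were nearly equal in score and differed in their surroundings. Both 3L:20704443-20704899 (457 bp) and X:20631342-20631778 (437 bp) scored 51.52 and had no other peak within 50 kb. The peak on X lay 508.6 kb and 284.8 kb from its neighbours and was the strongest member of that chromosome. The peak at 3R:12086507-12086940 (434 bp) scored 51.15 in a crowded stretch. It had 15 other peaks within 50 kb, the nearest at 5.96 kb with a score of 81.73 and the strongest, 3R:12075015-12076688, with a score of 176.09. It counts as isolated at 5 kb but not at 10 kb.

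A further 11 members scored between 34.22 and 38.47 before a gap of 5.21 to the next. On 2L these were 2L:7306804-7307194 (38.47), 2L:19887508-19887823 (37.86), 2L:6357033-6357380 (36.64) and 2L:7976681-7977100 (34.22). On 3L they were 3L:18841559-18841889 (36.64), 3L:11869038-11869523 (35.42) and 3L:12117244-12117713 (34.82). On 3R they were 3R:3172198-3172549 (36.64), with no peak within 100 kb, and 3R:2680101-2680399 (36.03), which at 299 bp was the narrowest of the 17. On 2R the peak 2R:4139063-4139389 scored 37.25, and on X the peak X:8315193-8315610 scored 35.42. The remaining 3 of the 20 highest were X:13295081-13295563 (29.01), 3L:11885870-11886367 (28.44) and 2L:8809709-8810200 (27.89). The peaks 3L:11869038-11869523 and 3L:11885870-11886367 were each other's nearest neighbours, 16.8 kb apart, so both strong sites stand in the same stretch.

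Of these 20 peaks, 5 lay on 2L, 5 on 3L, 4 on 3R, 3 on X, 2 on 2R and 1 on chromosome 4. The highest of 2L was the peak with 38.47. In 17 of the 20 the score was higher than that of any other peak within 50 kb, but this counts 4 that had no other peak in that window. The 20 were chosen for high scores, which favours such a result, and no share for other peaks was computed. The strongest grouped narrow peaks were X:7201471-7201942 (42.9), 3R:24909609-24910082 (38.47), 2R:15998527-15998993 (37.74), 3L:5763805-5764267 (37.58) and 3L:12519871-12520267 (34.82). The strongest grouped narrow peak thus fell below the 6 strongest isolated ones.

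**Figure D2:**
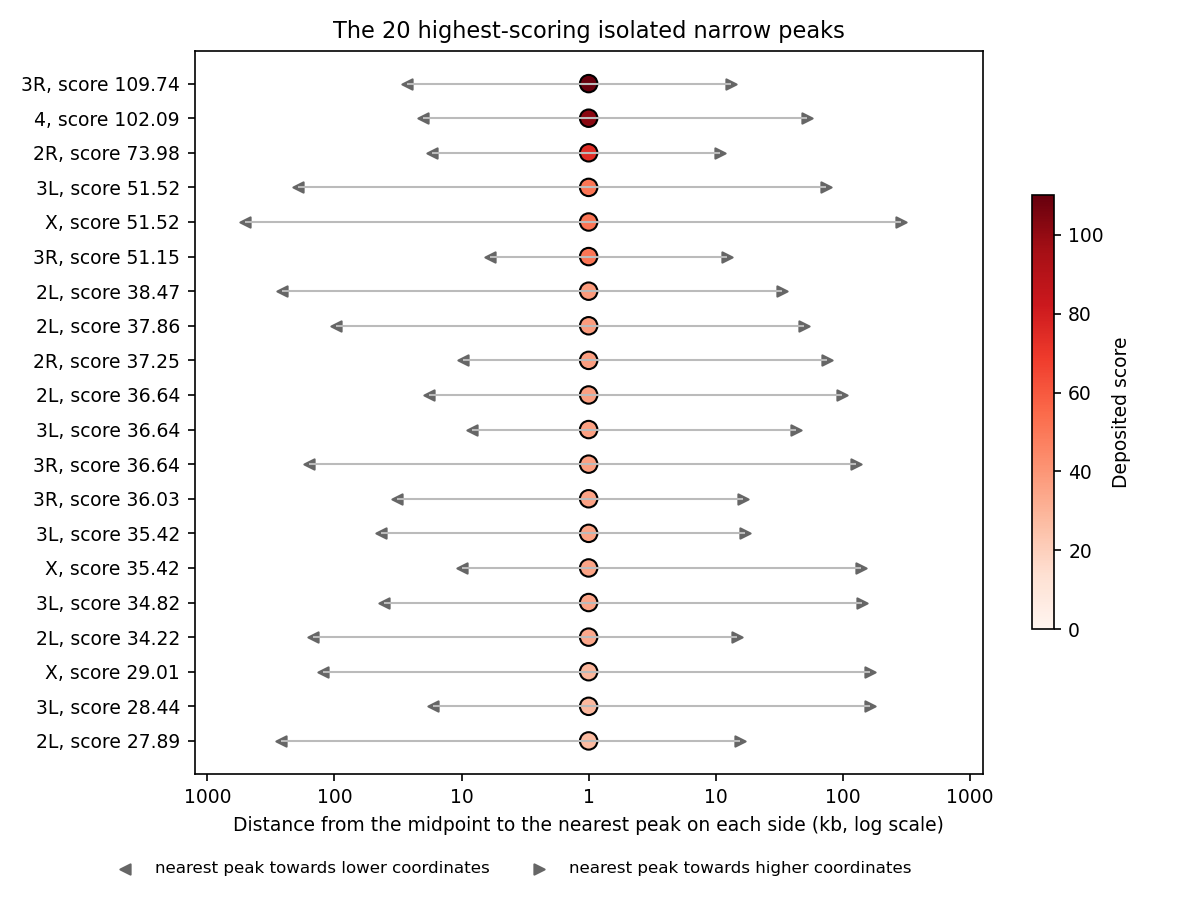
The 20 highest-scoring isolated narrow peaks, in descending order of score, each drawn as a circle shaded by its deposited score, with triangles at the distance (kb, log scale) of the nearest peak on either side. Nearest neighbours lay between 5.96 kb (3R, score 51.15) and 284.8 kb (X, score 51.52) away.

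Score rose with width within the narrow range, in both groups. Across the 590 isolated narrow peaks Spearman's rho of score and width was 0.46 (Pearson's r 0.36), and across the 912 grouped narrow peaks it was 0.44 (0.43). Both quantities come from the same reads of the same libraries, so they are tied through the peak caller. Among peaks of 201 to 250 bp the median score was 9.68 in isolated (n = 158) and 9.28 in grouped peaks (n = 246). Among those of 401 to 450 bp it was 15.1 (95% interval 13.1 to 16.7, n = 68) and 12.9 (11.3 to 14.3, n = 96), the widest gap of the 6 width classes. At 451 to 499 bp it was 15.5 (12.9 to 17.1, n = 60) and 13.6 (12.5 to 15.3, n = 98).

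The order turned round in 1 class. Among peaks of 351 to 400 bp the median was 12.0 in isolated and 12.6 in grouped peaks. The intervals of both groups overlapped in all 6 classes. Averaged over classes of 100 bp, weighted by the number of isolated peaks, the score of isolated peaks was 0.76 higher. The widths of both groups were alike in range, with a median of 313.5 bp (302 to 324) in isolated and 303 bp (294 to 311) in grouped narrow peaks.

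**Figure D3:**
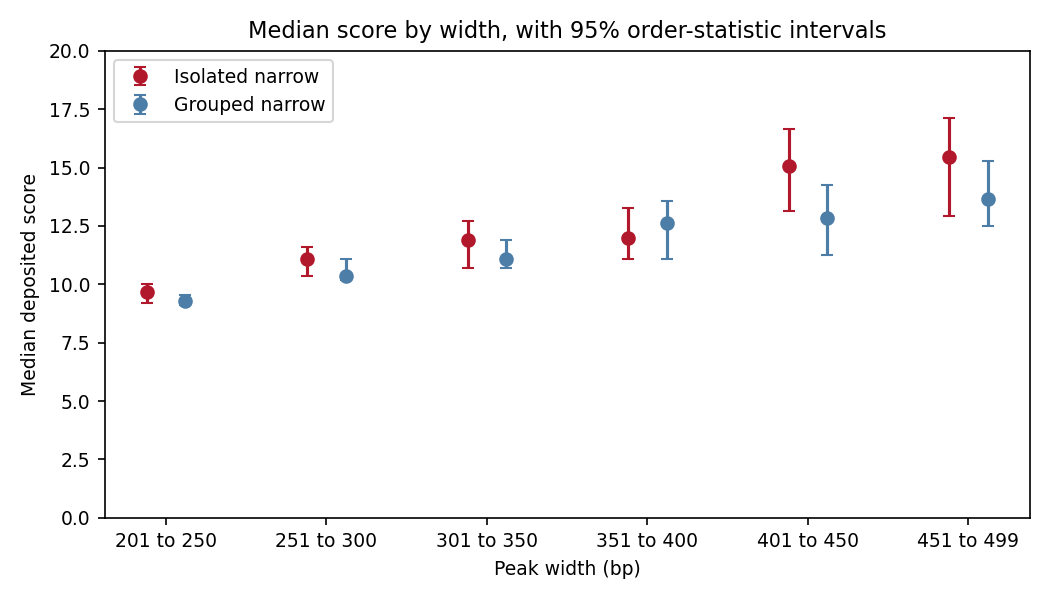
Median deposited score by width class (bp) for isolated narrow peaks and grouped narrow peaks, with bars for the 95% order-statistic interval of the median. The intervals overlap in each class, and the largest gap is at 401 to 450 bp, with 15.1 and 12.9.

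The distance limit cut through a continuous range. Isolated narrow peaks had a median distance of 20.3 kb to the nearest peak (95% interval 18.3 to 23.5, quartiles 10.4 and 47.9 kb), and grouped narrow peaks had 973 bp (911 to 1027.5). The rule itself sets this contrast. Isolated wide peaks were close to the isolated narrow ones, with a median of 20.2 kb (17.6 to 23.8). Just inside the limit were 3L:22401095-22401508 (nearest peak at 5096.5 bp, score 19.03) and 3L:9448982-9449385 (5100 bp, 10.84). Just outside were 3L:14783362-14783564 (4991 bp, 7.78) and 2R:10199945-10200255 (4932 bp, 14.42). Narrow peaks with the nearest peak at 5000 to 6000 bp had a median score of 12.3 (quartiles 10.1 and 14.7, n = 31). Those at 4000 to 5000 bp had 10.8 (9.56 and 14.3, n = 52). At the width limit, isolated peaks of 450 to 499 bp had a median score of 15.2 (n = 61), and isolated peaks of 500 to 549 bp had 17.2 (n = 38).

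**Figure D4:**
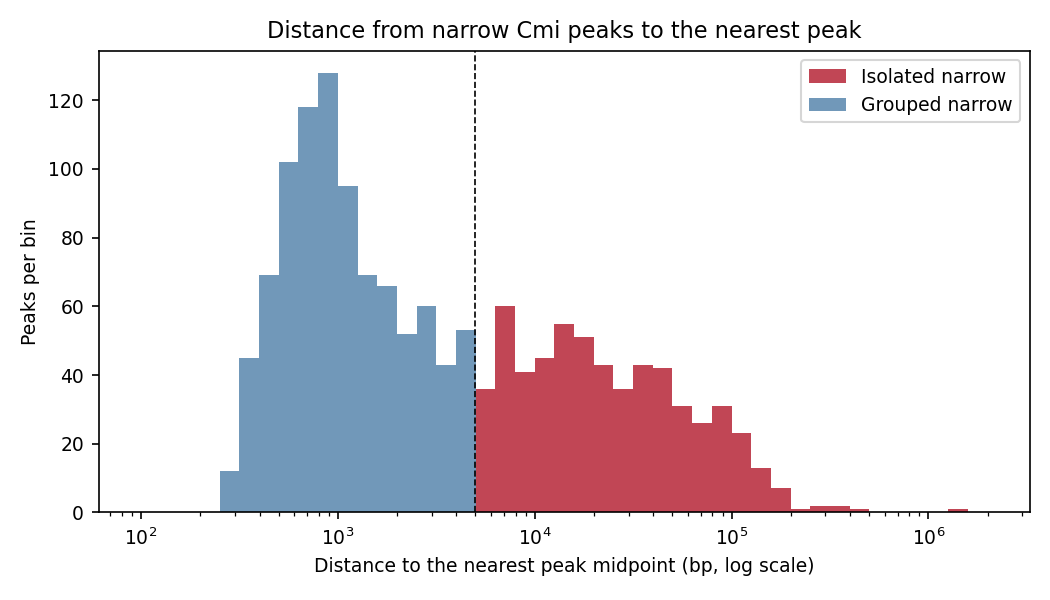
Histogram of the distance (bp, log scale) from each narrow peak to the nearest peak midpoint, for isolated narrow and grouped narrow peaks, with a dashed line at the limit of 5000 bp. Grouped peaks centre near a median of 973 bp, and isolated peaks spread around 20.3 kb with no gap at the limit.

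The farther reaches held few peaks. A nearest peak within 10 kb was found for 137 isolated narrow peaks (23.2%), and 50 (8.47%) had none within 100 kb. The loneliest was 3L:24462191-24462515 (score 9.25), the last peak of its arm, 1516.4 kb from the nearest peak. It was followed by X:21858184-21858513 (11.89), the last peak of X at 421.5 kb, and by 3R:23462194-23462570 (8.47), with 355.1 kb and 689.9 kb to its neighbours. The peak X:20122781-20123184 (19.52) had 331.2 kb and 508.6 kb, and 4:981857-982108 (11.89) had 335.2 kb and 302.7 kb. All 5 scored below the upper quartile of the major arms, above which only 6.27% of all isolated narrow peaks lay.

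Score changed little with distance up to 100 kb. The median score was 11.1 at 5 to 10 kb (n = 137), 11.5 at 10 to 20 kb (n = 154), 11.1 at 20 to 50 kb (n = 161) and 11.2 at 50 to 100 kb (n = 88). Beyond 100 kb it was 12.9 (95% interval 11.5 to 15.8, n = 50), an interval that overlaps those of the nearer classes. Of these 50 peaks 7 (14.0%, Wilson interval 6.95 to 26.2) scored above the upper quartile. The share was 5.84% at 5 to 10 kb, 7.79% at 10 to 20 kb (4.51 to 13.1), 4.97% at 20 to 50 kb and 2.27% (0.625 to 7.91) at 50 to 100 kb, with 25.0% over all peaks of the major arms. Across all 590 members Spearman's rho of score and distance was 0.06.

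The nearest neighbour of an isolated narrow peak was itself isolated in 380 of 590 cases (64.4%), where 36.1% of all peaks of the major arms were isolated. The rule raises this share, since such a neighbour has no peak within 5 kb on the side of the member. It was wide in 42.7% of cases, where 43.9% of all peaks were wide. The isolated narrow peak was the weaker of the pair in 377 cases (63.9%), the stronger in 209 (35.4%) and equal in 4. The nearest peaks had a median score of 13.99, the same as all peaks of the major arms. Since the width limit keeps the members' scores low, it favours this direction. Within 50 kb, isolated narrow peaks had a median of 2 other peaks (quartiles 1 and 4), and grouped narrow peaks had 6 (3 and 9), a direction that the rule itself favours. No other peak lay within 50 kb of 138 members (23.4%), whose median score was 11.5. In contrast, 32 members (5.42%) had 10 or more peaks within 50 kb, and their median score was 10.3. Isolation at 5 kb therefore takes in both lone sites and single sites inside well-occupied stretches.

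Isolated narrow peaks lay on all 6 major arms: 131 on 3R, 130 on 3L, 121 on 2R, 112 on 2L, 90 on X and 6 on chromosome 4. Their number per stretch of an arm varied less than that of grouped narrow peaks. Of 121 stretches of 1 Mb, 117 held at least 1 isolated narrow peak, with a median of 5 (quartiles 3 and 7) and at most 12. The same stretches held a median of 7 grouped narrow peaks (3 and 11) and at most 24, and the variance over the mean was 1.44 for isolated and 3.66 for grouped narrow peaks. The rule itself keeps isolated peaks apart and gives each grouped peak a neighbour within 5 kb. Both the lower and the higher variance therefore follow in part from it. The last stretch of an arm can be shorter than 1 Mb, and it was counted like the others for both groups. The stretch with the most members, 12, was 3R:12000001-13000000, which also held the highest score of 109.74 and the crowded peak of 51.15. The stretch with the most grouped narrow peaks, 24, was 2L:1-1000000, and it held 6 isolated ones.

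The share of narrow peaks that were isolated ranged among the large arms from 36.3% on 3R (95% Wilson interval 31.5 to 41.4, 361 narrow peaks) to 43.2% on 2L (37.4 to 49.3, 259 narrow peaks), and the intervals of all 5 large arms overlapped. On X it was 38.6% (32.6 to 45.0), and on the 4 large autosomal arms together 39.2% (36.6 to 42.0). The median score of isolated narrow peaks was 11.9 on X and 11.1 on the large autosomal arms, and that of grouped narrow peaks was 11.9 and 10.7. Among the large arms, scores above the upper quartile had their lowest share in the isolated narrow peaks of 2R, with 3 of 121 (2.48%), and their highest in those of 3L, with 12 of 130 (9.23%), where 25.0% was the share over all peaks of the major arms.

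Chromosome 4, a small and largely heterochromatic chromosome, held 6 isolated and 4 grouped narrow peaks. Besides the peak with 102.09, its members were 4:497310-497576 (24.62), 4:646599-646909 (20.5), 4:229333-229539 (18.55), 4:981857-982108 (11.89) and 4:628127-628374 (9.64). Their median of 19.5 was above the 11.1 of the large autosomal arms, but it rests on 6 peaks that run from 9.64 to 102.09.

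The scores were also compared with a series of steps. Recurrent scores fell on the steps that whole read heights give against a single background of 31.1 reads, which matched 77 of 84 recurrent values, while a background more than 1 read away matched at most 11. A score on these steps fits the background of the whole genome, and MACS uses a local background where the local input is higher. Of the isolated narrow peaks 71.2% (Wilson interval 67.4 to 74.7) were on the steps, and of the grouped narrow peaks 70.8% (67.8 to 73.7), against 74.1% of all peaks of the major arms. The match was taken within 0.0061, and the recurrent score 8.11, shared by 19 members, lay 0.013 from a step and so counted as off it. A score off the steps is therefore not by itself a sign of a local background, and the shares are also given within 0.015, which takes 8.11 in. Within 0.015 they were 75.9% of isolated and 75.5% of grouped narrow peaks. The intervals of both groups overlap almost wholly. On the steps, the read height implied by the score had a median of 2.51 times the background in isolated and 2.44 times in grouped narrow peaks. The 5 strongest members were on the steps, with implied heights of 4.79 to 7.20 times the background.

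By arm, the share of isolated narrow peaks on the steps was 91.1% on X (83.4 to 95.4, n = 90) and 67.4% on the large autosomal arms (63.2 to 71.4, n = 494), and it was lowest on 2R with 57.0% (48.1 to 65.5, n = 121). The value for X depends on 1 score, since 7 of its 8 members off the steps had 8.11. Within 0.015 the share was 98.9% on X (94.0 to 99.8), 71.7% on the large autosomal arms (67.5 to 75.5) and 62.0% on 2R (53.1 to 70.1). Grouped narrow peaks had 95.1% on X and 66.5% on the large autosomal arms, or 98.6% and 71.5% within 0.015. By distance, the share was 66.4% at 5 to 10 kb (58.2 to 73.8), 68.2% at 10 to 20 kb, 68.3% at 20 to 50 kb, 79.5% at 50 to 100 kb (70.0 to 86.7) and 88.0% beyond 100 kb (76.2 to 94.4). X made up 13.1% of the members at 5 to 10 kb and 15 of the 50 beyond 100 kb. Without X the shares were 62.2% (53.2 to 70.4, n = 119) at 5 to 10 kb and 85.7% (70.6 to 93.7, n = 35) beyond 100 kb. Within 0.015 the share without X was 67.2% (58.4 to 75.0) at 5 to 10 kb and again 85.7% beyond 100 kb, and these intervals overlap. By score, 57.8% of the members up to 10 were on the steps, 75.3% of those above 10 and up to 15, and 15 of 17 above 30. Within 0.015 these shares were 68.4%, 76.9% and 16 of 17. Grouped narrow peaks of the same score classes had 64.1%, 72.8% and 3 of 6, or 71.7%, 75.5% and 4 of 6 within 0.015. The part of the local input in these shares was not tested.

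**Figure D5:**
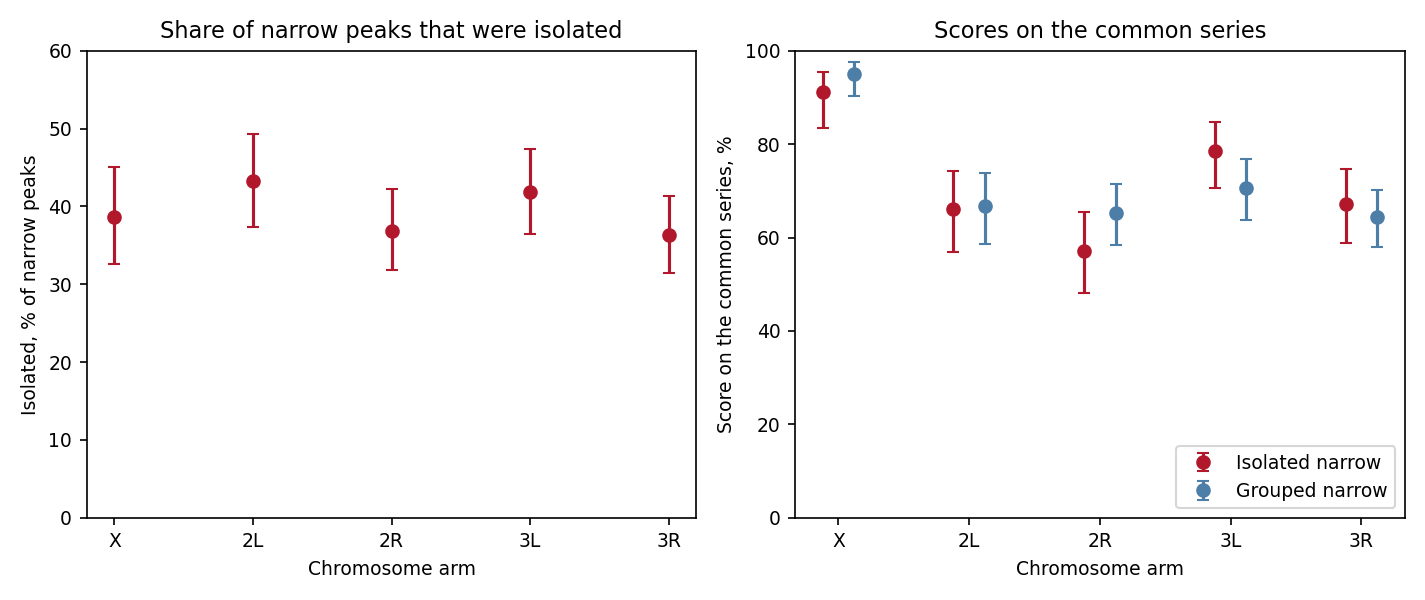
Share of narrow peaks that were isolated (left, %) and share of isolated narrow and grouped narrow peaks whose score lies on the common series of steps (right, %), by large chromosome arm, with 95% Wilson intervals. The left intervals overlap among all arms, and on the right X stands at 91.1% for isolated and 95.1% for grouped narrow peaks, the highest points. The shares were matched within 0.0061, at which the intervals of the isolated peaks on X and 3L overlap; within 0.015 they are 94.0 to 99.8 on X and 75.7 to 88.6 on 3L.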

How the data were processed

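Per the labels, chromatin of embryos of 0 to 8 h was immunoprecipitated with anti-Cmi (2 libraries) and sequenced beside input DNA (2 libraries). The submitters' processing notes name CASAVA (1.7.0.2, 1.7.0.3), the build BDGP5, MACS2 and BWA, without their roles. Per the file header, peaks lie on FlyBase release 5 and carry MACS as source. Thresholds and whether replicates were pooled are not stated there. The deposited score per peak has no stated scale. It was compared with Poisson tails for backgrounds of 5 to 120 reads, with a tolerance of 0.0061 and scores shared by at least 5 peaks.

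Midpoint distances, medians with order-statistic intervals and Wilson intervals were computed with Python 3.11.15, pandas 2.3.3, SciPy 1.17.1 and statsmodels 0.14.6. The isolation rule and the background scan were tested on simulated data. Peaks named are the 20 highest members, the highest of each arm, the 5 farthest, narrowest and lowest, and the 5 highest grouped narrow peaks; other peaks were named after their values were seen. The members and these rules were chosen with earlier results of these data known. Alternatives were other distances, widths, edges, joining, neighbours and tolerances. The gene table is of Release 6, another build, and gave only the symbol of CG5591.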

Additional observations from a re-analysis of the deposited data

Results flagged for a closer look

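Outside the major arms 213 peaks met the same limits of distance and width, and they entered no comparison. Of these 204 lay on Uextra, which joins unplaced sequence, so a distance there need not be a distance in the genome. Their median score was 38.9 (quartiles 30.7 and 49.5), and 164 of them (77.0%) scored above 30. Grouped narrow peaks of the same sequences were close to this, with a median of 37.1 and 72.8% above 30 (n = 180).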

How the results depend on the processing

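Of 41 alternatives, 36 stayed within the interval of the reported value or within 1.5 times the reported count. For a difference of medians, the span between opposite ends of both medians' intervals was used. The number of isolated narrow peaks ran from 453 (neighbours within 10 kb) to 866 (only peaks at or above the median score as neighbours). The median score of isolated minus grouped narrow peaks was 0.38 to 0.77, within the -0.01 to 1.53 around the reported 0.605, which includes 0. The difference of median widths was -1.5 bp with a width limit of 600 bp. The share above the upper quartile was 3.46% with a limit of 400 bp, and the share on the score steps was 75.9% with a tolerance of 0.015. The median distance was 13.1 kb with neighbours within 2 kb and 30.6 kb within 10 kb, as the limit itself sets. Leaving out X or chromosome 4, and the shares within 0.015 by arm, score and distance, were chosen after seeing the data. No paired analysis was possible because each peak has a single score for all libraries together, and single replicates could not be left out either. Start sites and base composition were not run without an annotation of release 5. The depth is unknown, so a stretch without peaks is not shown to lack Cmi.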

Other observations

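The narrowest isolated peaks shared a single width. No peak of the major arms was below 201 bp, and 33 isolated narrow peaks (5.59%) were 201 bp wide, compared with 40 grouped narrow peaks (4.39%). Of the 33, 11 lay on 2R, 9 on 3R, 6 on X, 5 on 2L and 2 on 3L, and their scores had a median of 8.47 and a maximum of 11.09. The first 5 by position were on 2L at 2L:4838137-4838337 (score 8.83), 2L:18867576-18867776 (7.4), 2L:19182029-19182229 (7.78), 2L:20060988-20061188 (11.09) and 2L:21009499-21009699 (7.94).

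The lowest scores among the isolated narrow peaks were 6.09 at 3R:18943895-18944095, 6.44 at 3R:20422911-20423140, 6.53 at 2L:4981378-4981757, 6.76 at 3R:19863585-19863902 and 6.78 at 2L:1007904-1008256. The first of these was the lowest score of the major arms. The 590 members held 199 distinct scores, and the most frequent were 9.94 (27 peaks), 12.71 (23 peaks) and 10.32 (22 peaks).

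Members beyond 100 kb from any peak included 7 with a score above the upper quartile. Besides the peaks named with 51.52, 36.64 and 29.01, these were 2L:13665925-13666422 (27.33), 2L:18305244-18305714 (24.09), 3L:18393148-18393512 (23.05) and 2L:14233836-14234318 (22.53).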
